A study of Mus musculus with 5 samples.

Results

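Immediate-early genes were examined in mouse embryonic stem (ES) cells, the cultured cells that keep the potency of the inner cell mass. The members were the rows of the expression table whose name is Fos, Fosb, Jun, Junb, Egr1, Ier2, Ier3, Dusp1, Atf3 or Gadd45b, and all 10 were found among 24016 genes. RNA was sequenced from 5 libraries, 1 per labelled line. NOD mice, which develop autoimmune diabetes, gave 2 lines (NOD replicate 1 and NOD replicate 5). B6 (C57BL/6), NZB, which is also autoimmune-prone, and v6.5, derived from crossed C57BL/6 and 129S4/SvJae mice, gave 1 line each. All were untreated apart from the 2i inhibitors of MEK and GSK3 that every culture contained, and no deletion or transgene is labelled. A strain other than NOD therefore rests on a single line, and a strain cannot be told apart from its line, culture or library there. The command in the table header reads 2 input directories with B6 in their names, and v6.5 is in no name, so that column is called the library labelled v6.5. Whether v6.5 against B6 compares different strains or a pair of B6 libraries cannot be told from the files.

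Immediate-early genes are transcribed within minutes of a growth factor, a stress or another outside signal, without new protein synthesis. Signals through ERK, p38 and other kinases act on serum response factor with its ternary complex partners, and on CREB, which are already bound or present. Fos, FosB, Jun and JunB pair as the AP-1 transcription factor, Egr1 is a zinc finger factor, and Dusp1 is a phosphatase that ends MAP kinase signals. MEK, the kinase upstream of ERK, was inhibited in all of these cultures.

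Recovered reads ranged from 7713133 to 21387796 per library. Rn45s, a ribosomal RNA precursor, took 41.4% of the reads in B6 and between 1.95% and 14.3% in the 4 other libraries. Levels are therefore given as normalised reads, the deposited values divided by TMM factors that correct for such differences in composition. The ES cell genes Pou5f1 (3549 to 10408 normalised reads) and Nanog (1934 to 9113) were high in every library. Other pluripotency genes differed more, with Tdgf1 from 154 (NOD replicate 1) to 9498 (B6) and Zfp42 from 505 (B6) to 10226 (NOD replicate 5). In NOD against B6, 1 of 11 pluripotency genes was higher and 2 lower (median log2 fold change -0.91). Of 7 trophoblast markers tested, 2 were higher and 1 lower (median 1.38). Of 8 primitive endoderm markers tested, 0 were higher and 2 lower (median 0.17). Of all genes, 3.14% were higher and 3.05% lower. In bulk RNA, fewer cells of a type and less RNA per cell cannot be told apart. Intervals of levels and ratios are exact 95% intervals that cover counting error only.

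The promoters of Fos, Fosb and Dusp1, the members called in NOD against NZB, are shown first, because CREB and the TATA-binding machinery act close to the start of these genes. RefSeq promoters (GRCm38.p6) of 8 of the 10 members were matched, and Ier2 and Egr1 are named only. The last 200 bases before the start are printed 5′ to 3′ for Fos (chr12:85473690-85473889, plus strand), Fosb (chr7:19310046-19310245, minus strand) and Dusp1 (chr17:26508473-26508672, minus strand). Capitals mark TGACG, the core of the cyclic AMP response element (CRE), the whole element TGACGTCA, or TATAA.
Fos: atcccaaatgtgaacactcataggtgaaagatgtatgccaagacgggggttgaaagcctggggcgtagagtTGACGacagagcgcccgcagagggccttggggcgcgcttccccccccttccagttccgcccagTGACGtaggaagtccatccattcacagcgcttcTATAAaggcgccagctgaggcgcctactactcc
Fosb: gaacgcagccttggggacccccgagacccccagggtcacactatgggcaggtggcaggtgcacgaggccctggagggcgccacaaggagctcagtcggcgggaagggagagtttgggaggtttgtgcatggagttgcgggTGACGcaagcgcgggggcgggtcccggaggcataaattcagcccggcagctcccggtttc
Dusp1: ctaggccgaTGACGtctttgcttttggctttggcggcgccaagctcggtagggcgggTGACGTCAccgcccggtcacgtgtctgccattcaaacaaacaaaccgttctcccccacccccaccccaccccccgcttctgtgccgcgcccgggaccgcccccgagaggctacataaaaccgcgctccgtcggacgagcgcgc
In Fos, TGACG began 129 and 66 bases before the start and TATAA 33 bases before it. In Fosb, TGACG began 60 bases before the start. In Dusp1, TGACG began at 191 and 143 bases before the start, and the match at 143 was the start of the whole element. A match at 140 was the same element read on the other strand.

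The 6 motifs, chosen after the expression values were known, were searched on both strands of the 250 bases before each start, and each result is given. TGACG was present in 5 of the 8 member promoters (Fos, Fosb, Junb, Dusp1 and Atf3) and in 17.8% of 32851 promoters of the same length. TGACGTCA, which contains TGACG, was present in Dusp1 alone and in 1.55% of promoters. TATAA was present in 3 of 8 (22.8% of promoters) and CCAAT in 4 of 8 (33.8%). The AP-1 motif TGANTCA was present in 0 of 8 (6.75% of promoters) and the CArG box bound by serum response factor in 0 of 8 (1.47%). These matches describe letters in this window only.

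The NZB library held the highest level of 7 of the 10 immediate-early genes, Fos, Fosb, Jun, Junb, Egr1, Ier3 and Dusp1. NZB was the highest library for 15.5% of the 14280 genes tested over the 5 libraries. Fosb and Egr1 passed the filter on low values only through NZB, and among genes that passed without NZB the counts were 5 of 8 members and 14.4% of 14068 genes. For Fos and Fosb the NZB level was over 20-fold above the next library. The NOD lines had the lowest Ier3 and the highest Gadd45b. Atf3 was high in both NOD lines and in NZB. The patterns of the members thus fell into several kinds, which the plot of levels by library shows.

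**Figure D1:**
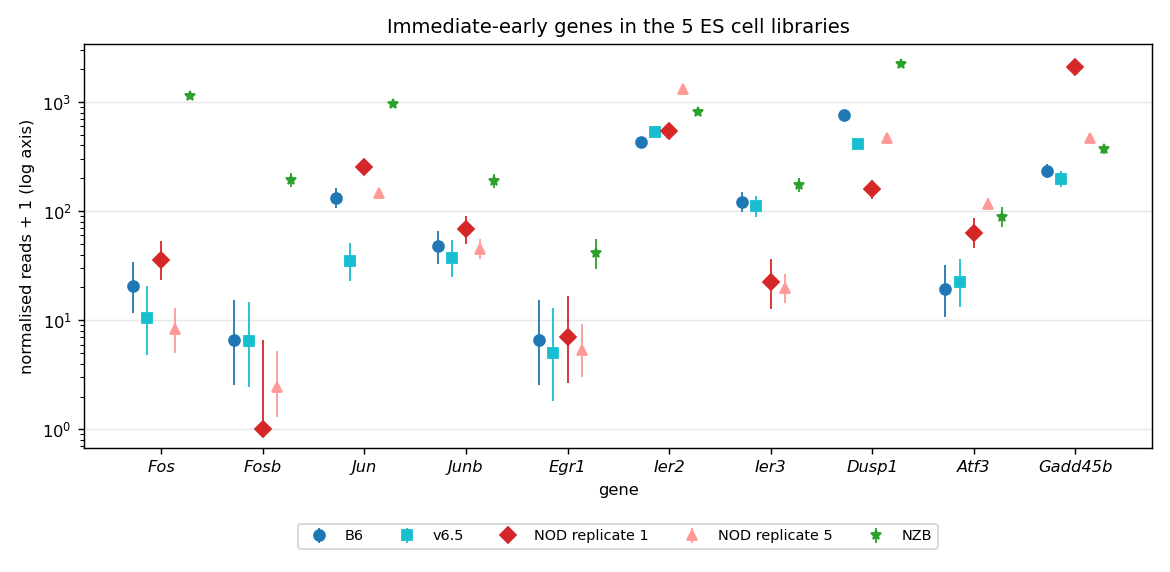
Normalised reads plus 1 (log axis) of each of the 10 immediate-early genes in the 5 libraries, 1 point per library, with exact 95% counting intervals as bars. The NZB stars stand highest for 7 genes, with Fos at 1129 normalised reads against 7.27 to 35.05 in the 4 others.

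Per kilobase of exon, the median level over the 5 libraries ran from Ier2 (353 normalised reads per kb), Gadd45b (293) and Dusp1 (239) through Ier3 (101), Jun (45.8), Atf3 (31.7) and Junb (25.3) to Fos (9.44), Egr1 (1.84) and Fosb (1.43). Neighbours in this order overlapped in their ranges over the libraries. The members lie on 8 chromosomes. Ier2 and Junb are 314 kb apart on chromosome 8 in mm9, and no member overlaps another gene entry on its strand.

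Fos, the AP-1 subunit that pairs with Jun proteins, had 19.7 normalised reads in B6, 9.47 in the library labelled v6.5, 35.05 in NOD replicate 1, 7.27 in NOD replicate 5 and 1129 in NZB. The NZB library held 1097 Fos reads and the 4 others between 7 and 23. NZB stood apart, and the 2 NOD lines lay on both sides of B6. The ratio of NOD replicate 1 to B6 was 1.78 (0.877 to 3.74), an interval that includes no difference. That of NOD replicate 5 to B6 was 0.369 (0.166 to 0.825). The NZB level was 57.3 times that of B6 (34.0 to 105), 119 times that of v6.5 (57.7 to 297), 32.2 times that of NOD replicate 1 (21.4 to 51.1) and 155 times that of NOD replicate 5 (93.8 to 279).

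Fosb, a close relative of Fos, had 5.64 normalised reads in B6, 5.41 in v6.5, 0 in NOD replicate 1, 1.45 in NOD replicate 5 and 191 in NZB. These levels came from 186 reads in NZB and from 4, 4, 0 and 3 reads elsewhere, so Fosb entered the test only through NZB. NZB was 34.0 times as high as B6 (13.1 to 126) and 132 times as high as NOD replicate 5 (44.4 to 645). Against NOD replicate 1 it was at least 41.9-fold higher, with the floor set at 3 reads per library.

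Jun, the main partner of Fos in AP-1, had 131 normalised reads in B6, 33.8 in v6.5, 251 in NOD replicate 1, 146 in NOD replicate 5 and 955 in NZB. NZB was 3.80 times as high as the next library, NOD replicate 1 (3.22 to 4.51). Junb, the JunB subunit, had 46.4, 36.5, 67.0, 44.1 and 187 normalised reads in the same order of libraries. NZB was again highest, at 2.79 times NOD replicate 1 (2.00 to 3.98), while the 4 other libraries lay close together.

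Egr1, a zinc finger factor and a classical ERK target, was near the detection limit outside NZB. It had 5.64 normalised reads in B6, 4.06 in v6.5, 6.10 in NOD replicate 1, 4.36 in NOD replicate 5 and 40.2 in NZB. These were 3 to 9 reads in the 4 other libraries and 39 in NZB, so Egr1 too entered the test only through NZB. Its NZB level was 6.59 times that of NOD replicate 1 (2.38 to 25.4).

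Dusp1, the MAP kinase phosphatase, had 757 normalised reads in B6, 411 in v6.5, 157 in NOD replicate 1, 464 in NOD replicate 5 and 2211 in NZB. NZB was 2.92 times as high as B6, the next library (2.66 to 3.22). The 2 NOD lines differed, and NOD replicate 1 was 0.339 times NOD replicate 5 (0.274 to 0.415).

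Ier3, an early-response gene linked to cell survival, had 121 normalised reads in B6, 110 in v6.5, 21.3 in NOD replicate 1, 18.9 in NOD replicate 5 and 173 in NZB. Both NOD lines were low and alike, and the 3 other libraries did not overlap with them. Ier3 was below every other library in both NOD libraries, as were 16.9% of genes tested, and at least 2-fold below, as were 2.18%. Fosb followed this pattern on 0 and 3 NOD reads against 4 in B6 and 4 in v6.5, and the ratio of NOD replicate 5 to B6 was 0.258 with an interval from 0.0378 to 1.53, which includes no difference.

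Gadd45b, which acts in stress signalling and growth arrest, had 232 normalised reads in B6, 196 in v6.5, 2112 in NOD replicate 1, 469 in NOD replicate 5 and 370 in NZB. Both NOD lines were above the 3 others, as for 18.5% of genes tested, but NOD replicate 1 was 4.50 times NOD replicate 5 (4.15 to 4.89). The mean of the NOD lines was 1290 ± 1162 normalised reads (SD, n = 2).

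Atf3, a stress-induced member of the ATF family, had 18.3 normalised reads in B6, 21.6 in v6.5, 62.5 in NOD replicate 1, 115 in NOD replicate 5 and 87.5 in NZB. Jun, Ier2, Atf3 and Gadd45b were higher in both NOD libraries and NZB than in B6 and v6.5, as were 22.7% of genes tested. For Ier2 the ratio of NOD replicate 1 to v6.5 was 1.01 (0.872 to 1.17). For Jun the ratio of NOD replicate 5 to B6 was 1.11 (0.880 to 1.42). Both intervals include no difference. Atf3 was the one member at least 2-fold higher in both NOD libraries and NZB than in B6 and v6.5, as were 3.41% of genes tested. Ier2, a nuclear early-response protein, had 428, 531, 536, 1314 and 812 normalised reads in the same order of libraries. Its range was the narrowest of the 10, and NOD replicate 5 was highest.

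**Figure D2:**
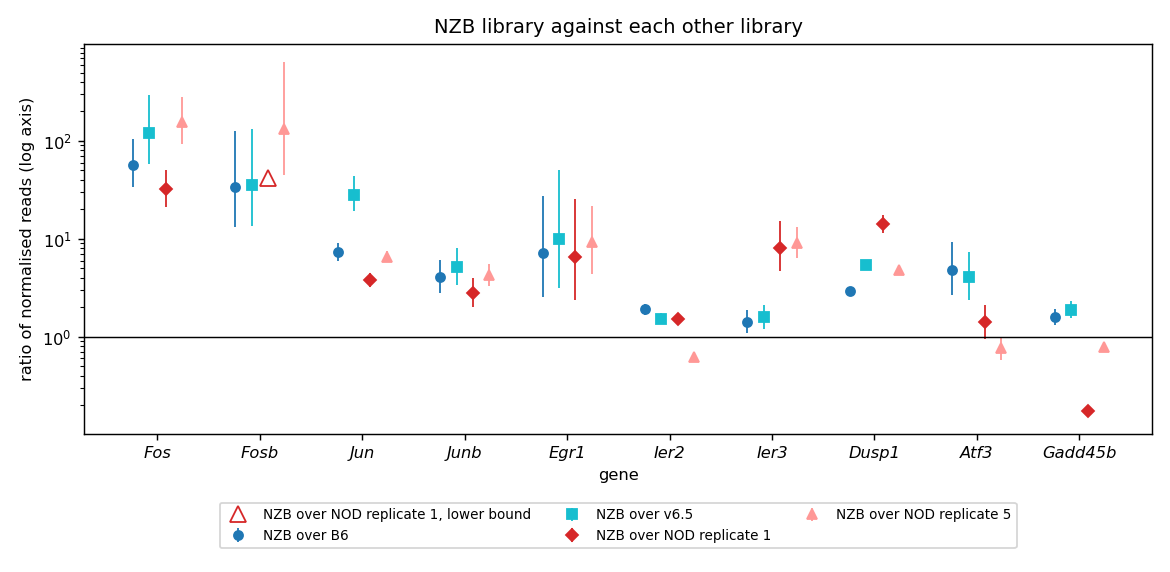
Ratio of normalised reads in NZB to each of the 4 other libraries (log axis) for the 10 genes, with exact 95% counting intervals. The open triangle is a lower bound for Fosb against NOD replicate 1, which held 0 reads. Fos lies between 32.2 and 155, while Gadd45b lies at 0.175 against NOD replicate 1.

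Across the 14280 genes tested, the NZB level was at least 2-fold above the next library for 1.93% and at least 20-fold above it for 4 genes (0.028%), which were Fos, Fosb, Tnn, a matrix protein, and Nrbp2. Fosb and Egr1 could enter only by being high in NZB, so the members were counted over the 14068 genes that pass the filter without NZB. There 4 of 8 members (Fos, Jun, Junb and Dusp1) and 1.3% of genes were at least 2-fold above the next library, and Fos was 1 of the 2 genes at 20-fold or more. The 2-fold and 20-fold limits were set after the values were seen, and levels here carry a pseudocount of 1. Of all genes tested, 1 had a larger excess in NZB than Fos.

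**Figure D3:**
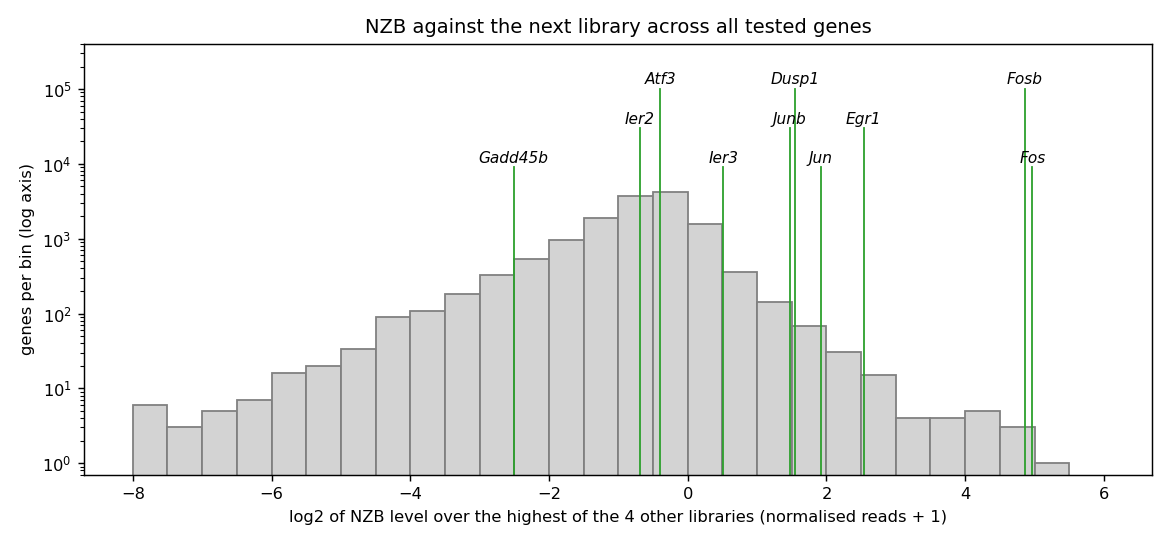
Number of genes (log axis) by the log2 ratio of the NZB level to the highest of the 4 other libraries, over 14280 tested genes, with green lines at the 10 immediate-early genes. The lowest bin also holds lower values. Fos and Fosb stand at the right edge, and Gadd45b, Ier2 and Atf3 lie below 0.

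NOD against NZB compared the 2 autoimmune-prone strains. Fos was lower in NOD by a log2 fold change of -6.03 (SE 1.02, limma adjusted p = 0.0225), Fosb by -6.94 (SE 1.20, adjusted p = 0.0243) and Dusp1 by -3.03 (SE 0.59, adjusted p = 0.0442). Over all genes tested, 0.343% were called lower and 0.273% higher. Fosb passed the filter only through NZB, where it is high, so its call is not counted against that share. Among genes that pass the filter without NZB, 2 of 8 members (Fos and Dusp1) and 0.334% of genes were called lower. Ier3 (-3.05, adjusted p = 0.144), Jun (-2.31, 0.164), Egr1 (-2.74, 0.534) and Junb (-1.77, 0.601) had negative values that missed the threshold, as did Ier2, Atf3 and Gadd45b with values between -0.04 and 1.43.

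These calls depended on how the TMM factors were taken. With factors from all genes of the table in place of the genes tested, none of the 3 was called (adjusted p = 0.146 for Fos, 0.113 for Fosb and 0.254 for Dusp1), and this choice was made after both sets of counts were known. Without the filter on low values none was called either, and with a pseudocount of 0.5 Dusp1 was lost. The edgeR test on recovered reads called 6 members (153 genes higher and 215 lower) and DESeq2 called 5 (95 and 116). Fos, Fosb and Dusp1 were among them.

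Some genes of the fibroblast list, collagens and Lox, moved in the same comparison. Of 12 listed, 9 were tested in NOD against NZB and 4 were lower in NOD, Col1a1 (log2 fold change -6.56, limma adjusted p = 0.000118), Col1a2 (-5.81, 0.00136), Col3a1 (-5.17, 0.00305) and Lox (-6.07, 0.00447), which are collagens and a collagen cross-linking enzyme. The 5 others tested were not called. The median of the 9 was -3.46, beside 0.01 over all genes. In NOD against B6, 4 of 10 tested were lower, with a median of -3.51. The summed level of the 12 was 9881 normalised reads in NZB, 7182 in B6, 1024 in v6.5, 716 in NOD replicate 1 and 533 in NOD replicate 5. Col1a1 had 3931 in NZB and 1868 in B6. Col5a1 went the same way, with 1587 in NZB and 889 in B6 against 208 to 425 elsewhere. Postn had 45.3 in NZB and 64.7 in B6 against 3.05 to 12.2 elsewhere. Pdgfrb was highest in NZB (173). Of the 9 tested in NOD against NZB, 1 had a positive value. Pdgfra and Thy1 had another order. Pdgfra was highest in NOD replicate 1 (99.0, beside 32.9 in NZB and 40.8 in B6). Thy1 was highest in v6.5 (54.1, beside 44.3 in NZB, 30.5 in NOD replicate 1 and 10.2 in NOD replicate 5). Dcn had 0 reads in NZB and Lum had 5. Of the 12 markers, 1 was at 0 reads in NZB, 3 in v6.5, 3 in NOD replicate 1 and 0 in B6 and in NOD replicate 5. Leukocyte markers summed to 121 in NZB and to 285 to 996 in the 4 others. Laptm5 alone made up most of each sum outside NZB. It had 877 in B6, 212 in v6.5, 283 in NOD replicate 1, 302 in NOD replicate 5 and 40.2 in NZB. The order of the sums is therefore that of Laptm5 and does not describe the other leukocyte markers. The part of these cell types in the immediate-early levels was not tested.

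NOD against B6 was the comparison the study centred on. Gadd45b was higher in NOD by a log2 fold change of 2.09 (SE 0.58, limma adjusted p = 0.0289), and it was the one member called of 8 tested. Of all 14325 genes, 3.14% were called higher and 3.05% lower. Fosb and Egr1 did not pass the filter on low values in these 3 libraries. Ier3 (-2.53, adjusted p = 0.101), Dusp1 (-1.49, 0.117), Atf3 (2.14, 0.145) and Ier2 (0.96, 0.283) did not pass. The values of Jun, Junb and Fos were 0.54, 0.22 and -0.26, and that of Fos turned positive under the deposited scaling and in the count tests.

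The Gadd45b call was lost with TMM factors from all genes (adjusted p = 0.128), without the filter on low values (0.510), with all 5 libraries in the fit (0.138) and with v6.5 joined to B6 (0.0588). With NOD replicate 5 alone its log2 fold change was 1.01, and with NOD replicate 1 alone it was 3.18. The edgeR test added Ier3 (adjusted p = 0.0453), with 517 genes higher and 670 lower. Joining v6.5 to B6 called Ier3 (limma adjusted p = 0.0272), with 692 genes higher and 697 lower.

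**Figure D4:**
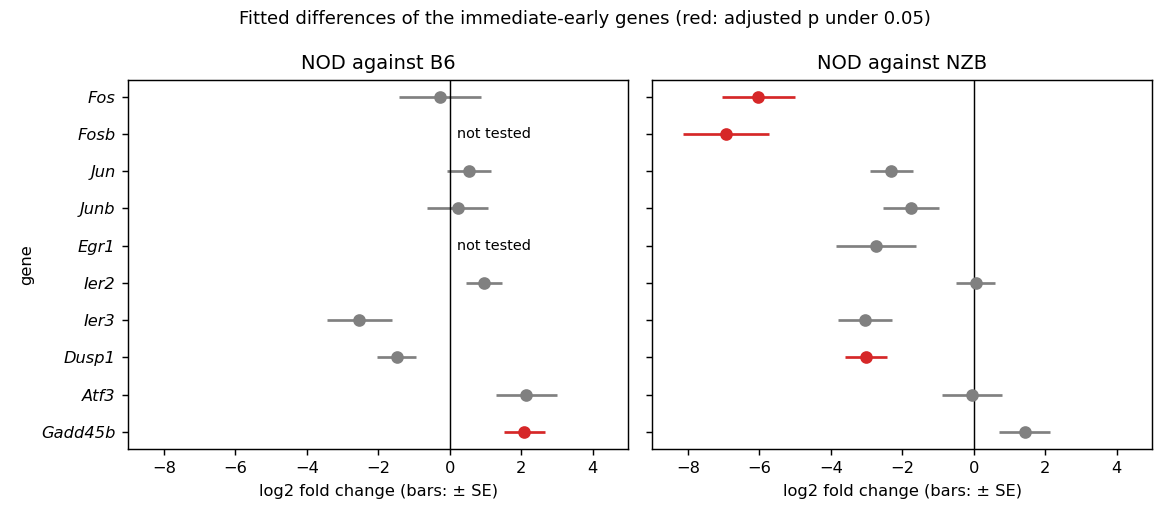
Fitted log2 fold changes of the immediate-early genes with SE bars, for NOD against B6 (left) and NOD against NZB (right), red where the limma adjusted p is under 0.05. Gadd45b is red on the left at 2.09, and Fos, Fosb and Dusp1 are red on the right.

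NZB against B6 set single libraries side by side, with the error taken from the NOD lines. All 10 log2 fold changes were positive, as were 6915 of 14280 genes. Their median was 2.09, beside -0.03 over all genes tested. Fosb and Egr1 passed the filter only by being high in NZB, so their positive values were fixed in advance. They still enter the median and the counts of this comparison. limma called 0 of 10, where 0.14% of all genes were called. At an unadjusted p under 0.05 stood 6 members, beside 1321 of 14280 genes. Fos was at 5.77 (SE 1.18, limma adjusted p = 0.0874), Fosb at 4.86 (0.241) and Jun at 2.86 (0.155). The edgeR test called Fos, Fosb and Jun (129 genes higher and 166 lower), and DESeq2 called Fos and Jun (75 and 80). Dividing by equal totals alone raised the median of all genes by 0.92, and 2 members were then called, beside 120 genes higher and 12 lower. The 2 strains have 1 library each, and no source says whether they were grown and sequenced together.

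NZB was also set against the 4 other libraries together, a comparison added after its high values were seen. limma called none of the 14280 genes (0%) and none of the 10 members, although Fos had a log2 fold change of 6.15 (SE 0.96, adjusted p = 0.787) and Fosb of 5.91 (SE 1.37, adjusted p = 0.9999). At an unadjusted p under 0.05 stood 443 genes and 6 members. Fosb and Egr1 again entered the test only through NZB, where they are high. The edgeR test also called 0 members. DESeq2 called Fos and Fosb (23 genes higher and 29 lower), and the deposited scaling called Fos (5 and 5). The excess in NZB is therefore large in these libraries and rests on a single one.

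In the remaining comparisons limma called no member. NOD against v6.5 (1.65% of all genes called) had 4 of 10 members and 2367 of 14280 genes at an unadjusted p under 0.05. Jun was closest to a call (log2 fold change 2.47, limma adjusted p = 0.0688). There edgeR called Jun, Ier3 and Gadd45b (426 genes higher and 411 lower), and DESeq2 called Jun and Gadd45b (272 and 197). v6.5 against B6 (0.007%) had 1 of 10 members at an unadjusted p under 0.05, Jun at -1.92, beside 315 of 14280 genes. No member was called there by edgeR (10 genes higher and 23 lower) or DESeq2 (6 and 19).

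NOD against the 3 other lines (0.566% of genes called) had 3 of 8 tested members at an unadjusted p under 0.05, beside 2371 of 13421 genes. Ier3 was closest, at -2.66 (limma adjusted p = 0.0634). There edgeR called 0 members, and DESeq2 called Ier3 and Gadd45b (334 genes higher and 435 lower). Without the NZB library limma called Ier3 (adjusted p = 0.0272), with 692 of 13311 genes higher and 697 lower. That fit is the same as NOD against B6 with v6.5 joined to B6, so it is not a separate call. NOD and NZB against B6 and v6.5 (4.26%) also had 3 of 8 at an unadjusted p under 0.05, beside 3567 of 13421 genes. Atf3 stood at 2.07 (limma adjusted p = 0.0531). edgeR called 0 members there and DESeq2 called Jun, Atf3 and Gadd45b (1155 genes higher and 940 lower). These comparisons share libraries and are not independent.

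The other genes of the early response were read from lists. Among 12 further AP-1 subunits, 9 were tested in NOD against B6, 2 were higher and 0 lower, where 3.14% of all genes were higher and 3.05% lower. Their median log2 fold change was -0.23, beside 0.02 over all genes. Jund, a Jun relative that is expressed without a stimulus, was higher (log2 fold change 1.86, limma adjusted p = 0.0107), as was Jdp2, a repressor of AP-1 (2.01, 0.0440). Normalised reads of Jund were 301 (B6), 504 (v6.5), 1064 (NOD replicate 1), 1139 (NOD replicate 5) and 729 (NZB). Fosl2, a Fos relative, had 73.2, 21.6, 10.7, 9.68 and 96.8 in the same order and was not called. Fosl1 had 5 reads in B6 and 0 in the 4 other libraries and was not tested.

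Of 37 other early-response genes in the table, 32 were tested in NOD against B6, with 1 higher and 4 lower (3.14% and 3.05% of all genes) and a median of -0.10. Csrnp1, a nuclear early-response protein, was higher (2.04, limma adjusted p = 0.0239). Myc, a growth regulator, was lower (-4.87, adjusted p = 0.0117), as were Zfp36l1 (-3.09, 0.00681) and Zfp36l2 (-2.66, 0.00946), which bind and destabilise messenger RNAs. Nr4a1, Gadd45a and Srf were not called. In NOD against NZB 33 were tested, and the single call was Ctgf, a secreted matrix-associated protein, lower in NOD (-2.21, adjusted p = 0.0417).

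Egr2 and Egr3, relatives of Egr1, were also highest in NZB. Egr2 had 40 reads in NZB and 1 or 2 in each other library, and Egr3 had 11 in NZB and at most 2 elsewhere. The Egr2 level in NZB was 14.6 times that in B6 (3.79 to 125). Egr2 was not called in NOD against NZB (log2 fold change -4.24, limma adjusted p = 0.222), and Egr3 did not pass the filter. Egr2 passed the filter only through NZB, where it is high, so the sign of its value was fixed in advance. Srf, the gene of serum response factor, had 265 to 438 normalised reads over all libraries. The 8 genes of serum response factor and its partners had a median log2 fold change of -0.52 in NOD against B6, and none was called.

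Among 13 ERK feedback genes, 1 was higher and 1 lower in NOD against B6 (3.14% and 3.05% of all genes), with a median of -1.67. Dusp4, a nuclear MAP kinase phosphatase, was higher (3.70, limma adjusted p = 0.00248) and Spry2, a Sprouty inhibitor, was lower (-1.96, 0.0256). Dusp6, an ERK phosphatase, was not called, with 163 normalised reads (B6), 124 (v6.5), 9.15 (NOD replicate 1), 81.4 (NOD replicate 5) and 126 (NZB).

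Genes that act with these members in stress signalling and in the serum response were read in the same way. Of 10 genes of the integrated stress response, the translation-stress pathway in which Atf3 is a target, 4 were higher and 0 lower in NOD against B6 (3.14% and 3.05% of all genes), with a median of 0.93. The largest were Trib3 (log2 fold change 3.94, limma adjusted p = 0.000138), Chac1 (3.44, 0.0116) and Ddit3 (2.73, 0.00349), all induced by ATF4 or CHOP. Of 14 actin and contractile targets of serum response factor, 5 were lower and 0 higher, with a median of -1.19. Acta2 was at -6.06 (adjusted p = 5.43e-05), Actg2 at -4.46 (0.0414) and Tagln at -4.15 (0.0108). These smooth muscle genes are also made by fibroblasts, of whose markers 4 of 10 tested were lower in NOD. Of 16 upstream MAP kinase genes (median -0.20) 0 were called in NOD against B6, and of 11 heat shock genes (median 0.12) 1 was lower, Hspa8 at -3.87 (6.56e-06).

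**Figure D5:**
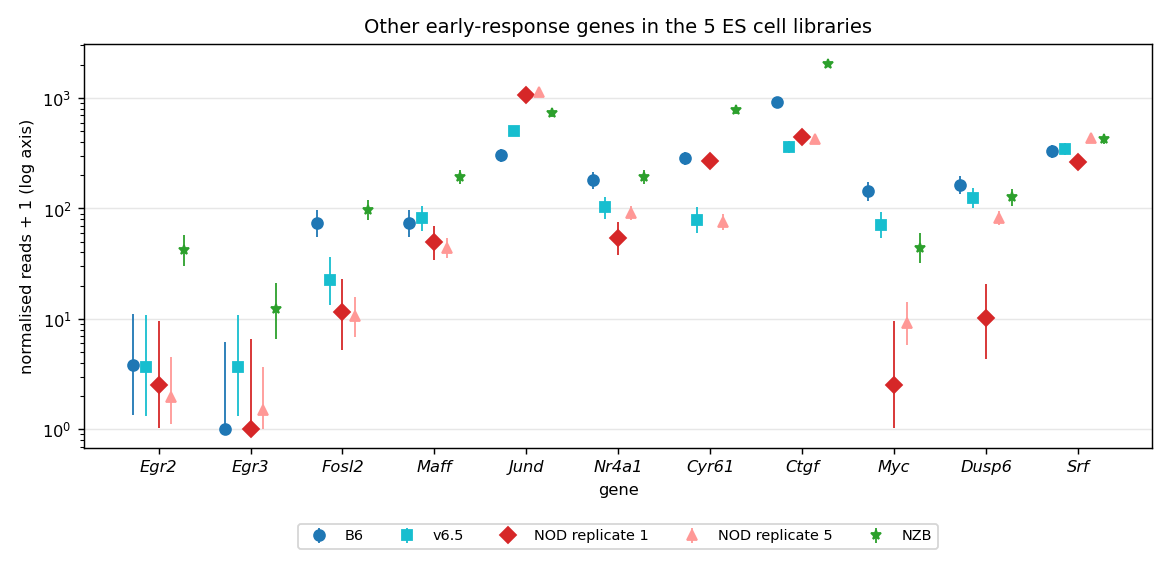
Normalised reads plus 1 (log axis) of 11 other early-response genes in the 5 libraries, with exact 95% counting intervals. Maff, Cyr61 and Ctgf were added to the plot after their values were seen. Egr2 and Egr3 are highest in NZB, at 40 and 11 reads, and Srf differs little between libraries.

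By the profile over the 5 libraries, the 5 genes nearest to the mean of the members among 9553 candidates were Gt(ROSA)26Sor (root mean square distance 0.13 on the log2 scale), Iffo2 (0.14), Rpl3 (0.21), Aifm3 (0.28) and Pfkfb2 (0.30). Each was highest in NZB, which follows from how they were chosen. The mean centred log2 level of the members was 2.02 in NZB and negative in every other library. A gene this near to the mean therefore had to be highest in NZB. Fosb and Egr1, which passed the filter only through NZB, were part of the mean. The members themselves lay between 0.14 (Egr1) and 1.74 (Fosb) from it, so the mean describes some members poorly.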

How the data were processed

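Poly-dT selected, strand-kept RNA of 5 mouse ES cell libraries was sequenced as single-end 50-base reads. Per the labels and file header, the authors aligned reads to mm9 with STAR 2.2.0c (CASAVA 1.8.2 base calling), counted them over RefSeq exons with HOMER and ran edgeR. The deposited signal values are read counts rescaled to equal library totals, without length or log transformation. Whole reads were recovered (100% of values below 3000 within 0.05 of a whole read). The exon length column, deposited by the authors, gave levels per kb. The authors' 9 columns of fold changes, p-values and FDR were not used.

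Genes were kept by filterByExpr, values were divided by TMM factors from the genes tested, and limma-trend was run on log2(value + 1), so folds of low genes are understated. P-values were adjusted by Benjamini-Hochberg across every gene tested, at a threshold of 0.05. NOD against B6 was fitted on 3 libraries, the other strain contrasts on 5 with 1 mean per strain (1 residual degree of freedom each), and each lone library was assumed to vary like the NOD lines. Nothing says that cultures or sequencing runs were separate, and p-values reflect only how far these libraries spread. The tools were DESeq2 1.42.0, edgeR 4.0.16 and limma 3.58.1 under R 4.3.3, and the fits were checked on simulated data. Alternatives were the deposited scaling, RLE factors, no filter, pseudocounts of 0.5 and 8, edgeR, DESeq2, left-out libraries, 5 libraries in NOD against B6, and v6.5 joined to B6.

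The members and lists were chosen with earlier results of these data known. Which genes give the TMM factors was not fixed in the plan. Factors from all genes were run first, and those from the genes tested were adopted, following an earlier description of these data, after both counts had been seen. Also added after seeing values were the runs without Rn45s, Rmrp and Rprl3, NZB against the 4 other libraries, the library patterns, the filter without NZB, the motifs and the Egr2 and Egr3 ratios. Every member is named. Of the other lists, at most the 3 largest changes called in NOD against B6 or NOD against the 3 other lines are named, with Fosl1, Fosl2, Jund, Egr2, Egr3, Nr4a1, Myc, Srf, Dusp6 and Gadd45a. Csrnp1, Ctgf, Col3a1, Tnn, Nrbp2, Maff and Cyr61 were named after their values were seen. The nearest profiles are the smallest root mean square distances of centred log2 levels among genes averaging at least 100 reads. The table's command names the NOD replicate 5 directory for lines 5 and 6, which leaves its number of lines uncertain.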

Additional observations from a re-analysis of the deposited data

How the results depend on the processing

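The members called were Gadd45b (NOD against B6) and Fos, Fosb and Dusp1 (NOD against NZB). They kept their direction in every alternative run, but the calls did not all hold. Fosb passed the filter only through NZB, so its direction was fixed in advance. It is in every count above 0 given here for NOD against NZB. It is also in the edgeR count for NZB against B6 and the DESeq2 count for NZB against the 4 other libraries. In NOD against B6, 1 member was called, 0 without the filter, with TMM factors from all genes or with all 5 libraries, 2 by edgeR and 3 with the deposited scaling. In NOD against NZB, 3 were called, 0 without the filter or with TMM factors from all genes, 6 by edgeR and 5 by DESeq2. In NOD against v6.5, 0 were called, 3 by edgeR and 2 by DESeq2. In NZB against B6, 0 were called, 2 with the deposited scaling, 3 by edgeR and 2 by DESeq2. In NOD against the 3 other lines, 0 were called, 2 with the deposited scaling, 2 by DESeq2 and 0 to 1 when a library was left out (1 without NZB). In NOD and NZB against B6 and v6.5, 0 were called, 4 with the deposited scaling, 3 by DESeq2 and 0 to 1 when a library was left out (1 without NZB). In NZB against the 4 other libraries, 0 were called, 1 with the deposited scaling and 2 by DESeq2. Over all genes, NOD against B6 gave 450 higher and 437 lower, 241 and 170 with TMM factors from all genes, and 2040 and 207 with the deposited scaling. That scaling gave 289 and 148 in NOD against the 3 other lines. It gave 1425 and 226 in NOD and NZB against B6 and v6.5. Why TMM factors from all genes lost the calls was not tested. Leaving NZB out of NOD against the 3 other lines, or out of NOD and NZB against B6 and v6.5, gave the same fit. It is also the fit of NOD against B6 with v6.5 joined, so these Ier3 calls are a single result.

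Reversed values, none of them called, were as follows. Fos in NOD against B6 was 0.46 with the deposited scaling, 0.024 by edgeR, 0.076 by DESeq2 and 0.24 with v6.5 joined to B6. In NOD against NZB, Ier2 was -0.11 with the deposited scaling, and Atf3 was 0.034 by edgeR and 0.0082 by DESeq2. In v6.5 against B6 the deposited scaling gave Fosb 0.53, Junb 0.34, Egr1 0.18, Ier3 0.55 and Gadd45b 0.46. In NOD against the 3 other lines, Jun was -0.95 by edgeR, -0.93 by DESeq2 and -0.89 to 1.51 with a library left out, Ier2 was -0.087 to 1.20, Fos -3.15 to 0.24 and Junb -0.78 to 0.40. In NOD and NZB against B6 and v6.5, Dusp1 was 0.44 with the deposited scaling, 0.72 by edgeR, 0.73 by DESeq2 and -1.04 to 0.88 with a library left out. Leaving out a NOD library left no residual degree of freedom in NOD against B6, NZB or v6.5, so those are values with no test. No paired analysis was possible because the labels name no pairing between the libraries. Depth limits Fosb, Egr1 and Egr2, which had at most 9 reads outside NZB.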
